A study of Mus musculus with 6 samples.

Results

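The genes described here encode the enzymes and remodelling proteins that write, read and erase marks on chromatin. They were taken by symbol, as every listed gene whose name starts with Kdm, Kmt, Hdac, Dnmt, Tet1 to Tet3, Setd, Cbx, Ezh, Smarc, Chd and a digit, Sirt, Prdm, Brd, Ehmt or Suv39h. The rule found 113 of the 12803 listed genes, and all 113 were tested. By role they fell into 22 histone methyltransferases, 17 lysine demethylases, 11 histone deacetylases, 7 sirtuins, 6 DNA methylation enzymes, 7 Polycomb proteins, 3 heterochromatin proteins of the HP1 family, 12 SNF2 and SWI/SNF proteins, 10 CHD remodellers, 9 bromodomain genes and 9 PRDM genes. The prefix also takes in Brd3os, a transcript from the strand opposite Brd3, and Smarcal1, whose protein rewinds DNA at stalled replication forks.

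The study compared messenger RNA between lines of mouse podocytes, which are kidney epithelial cells that cover the capillaries of the kidney filter. The WT group was 3 libraries of a wild-type mouse podocyte line that carries the name Mundel. The KO group was 3 libraries of a podocyte-derived line in which Myosin 1e, a membrane-binding motor protein, is knocked out. A heterozygous genotype is named in the design and was not analysed here. The sources used here do not give age, sex or treatment. Each genotype is 1 cell line, so the genotype and the line cannot be told apart in any difference below. The submitters call the 3 libraries of a genotype biological replicates. The sources used here do not say whether they were separate cultures, so the p-values measure only the spread between these libraries.

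Chromatin proteins work as enzymes or as subunits of large complexes. DNA methyltransferases and TET enzymes set and remove methyl groups on cytosine. Methyltransferases, demethylases and deacetylases change the tails of histones. Polycomb and HP1 proteins bind histone marks and hold genes silent, while SWI/SNF and CHD proteins use ATP to move nucleosomes. Many of these genes come as families of paralogs, of which a cell type uses some more than others. In the kidney, deacetylases and Polycomb proteins are studied in development and in glomerular disease.

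The listed genes held 35447096 to 42106461 reads in a library, at which 3 reads equal 0.0703 to 0.0856 CPM, the reads of a gene scaled to a common library size (counts-per-million). The targeted gene Myo1e stood at 18.9, 16.3 and 16.8 CPM in the KO libraries and at 184, 180 and 168 CPM in WT, which matched the labels. Its log2 fold change was -3.35 (SE 0.09, adjusted p = 2.1e-08 by limma), and the exact permutation test over the libraries gave p = 0.1, the smallest that 3 against 3 can give. Of 15 podocyte markers 10 were in the table, and the defining gene Nphs1 was not among them. Wt1, a transcription factor of podocytes, was at 4.4 CPM in WT and 0.125 CPM in KO, and the 10 markers summed to 2200 to 2536 CPM in WT and 1314 to 1655 CPM in KO. Of these 10, 6 fell and 3 rose, among the latter Podxl, a surface protein of podocytes, with 50.4 CPM in WT and 106 CPM in KO. All 12 simple-epithelium markers were higher in KO (summed 8197 to 8923 CPM against 4.71 to 7.97 CPM), with Epcam at 386 CPM in KO and 0.0431 CPM in WT. All of them except Krt7 had a WT mean under 1 CPM. These were tested only because of their KO values, so their rise was bound to be seen. Of 14 mesenchymal and fibroblast markers 9 were in the table and 8 were lower in KO (342 to 671 CPM against 4835 to 5006 CPM). The 7 tubular markers in the table summed to 458 to 522 CPM in KO and 2062 to 2904 CPM in WT. Only 2 of 10 endothelial and 3 of 10 leukocyte markers were in the table, and none of the 3 leukocyte markers passed the test. The part of cell type in the results below was not tested, and in bulk libraries fewer cells of a type and less RNA per cell cannot be told apart.

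Most chromatin modifiers were expressed in both lines and differed by small amounts. With a Benjamini-Hochberg adjusted p under 0.05 over all 12616 genes tested, 32 members rose in KO, 38 fell and 43 did not pass. Over all genes tested 34.3% were higher and 33.8% lower by the same call, so the share of 61.9% of members that passed lies beside a background of 68.1%. With a change of at least 2-fold added, 6 members rose and 10 fell, where 11.7% and 16.2% of all genes did. At 4-fold, 4 rose (Prdm16, Chd7, Hdac9 and Prdm8) and 2 fell (Brdt and Smarcd3), where 6.67% and 8.8% of all genes did. On a log2(CPM + 1) scale, which shrinks the changes of low genes, Prdm8 (1.19) and Brdt (-1.72) were under 4-fold, while Chd7 (3.72), Prdm16 (3.14), Hdac9 (2.10) and Smarcd3 (-2.18) were not. The KO and WT libraries did not overlap in 72 members, 34 of them higher and 38 lower in KO, beside 73.5% of all genes. The median log2 fold change was -0.09 over the members and 0.01 over all genes tested, and the median size of the change was 0.39 and 0.51.

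**Figure D1:**
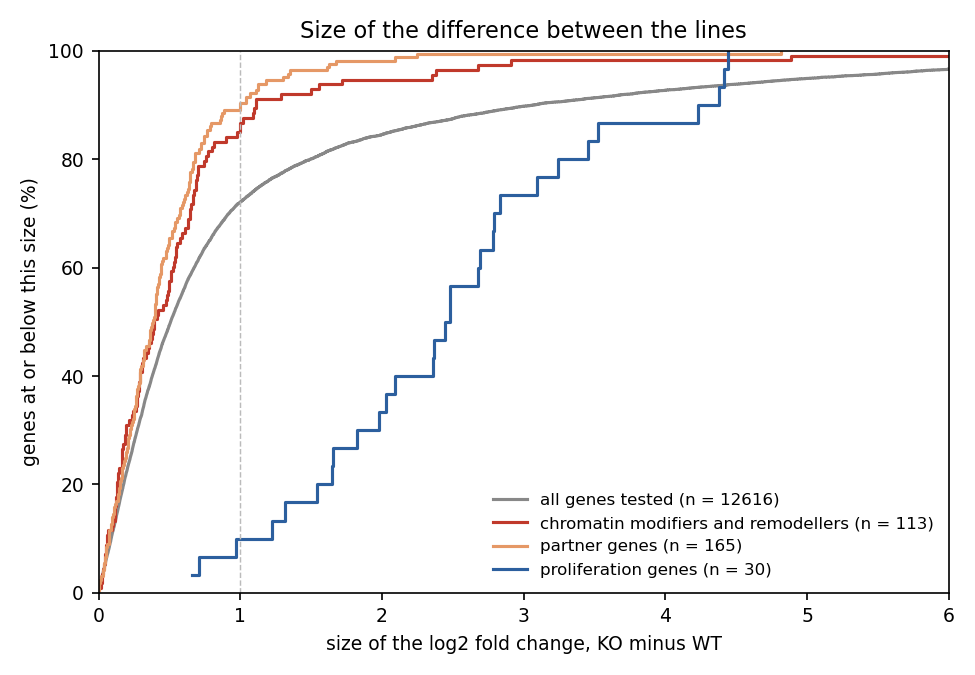
Cumulative share of genes (vertical axis, percent) at or below a given size of log2 fold change (horizontal axis, without sign, drawn up to 6) for the 113 members, 165 genes of partner proteins, 30 proliferation genes and all 12616 genes tested. The dashed line marks 2-fold, and the curves of the members and the partners lie above that of all genes there while the proliferation curve lies below it.

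The members were also more abundant than most listed genes, since 77.0% of them had a mean of at least 4 log2 CPM against 65.8% of all genes tested. Within that range 9.20% of the 87 members and 15.4% of the other genes were called at 2-fold, and the median size of the change was 0.37 and 0.39. Between 2 and 4 log2 CPM, 3 of 16 members and 36.1% of the other genes were called at 2-fold. Below 2 log2 CPM, 5 of 10 members and 68.9% of the others were. These shares describe the members, the difference between them and the other genes was not tested, and the median sizes lay close together among abundant genes. Within a group, the median SD of log2 CPM was 0.14 for members and 0.15 for all genes tested. Chd7, Prdm16, Prdm8 and Brdt passed the filter on low values through 1 line only, so a difference in them was bound to be seen and they give no support of their own. Hdac9 had 3 KO libraries and 1 WT library above that filter. It too was tested only because of its KO values, so its rise gives no support of its own either.

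**Figure D2:**
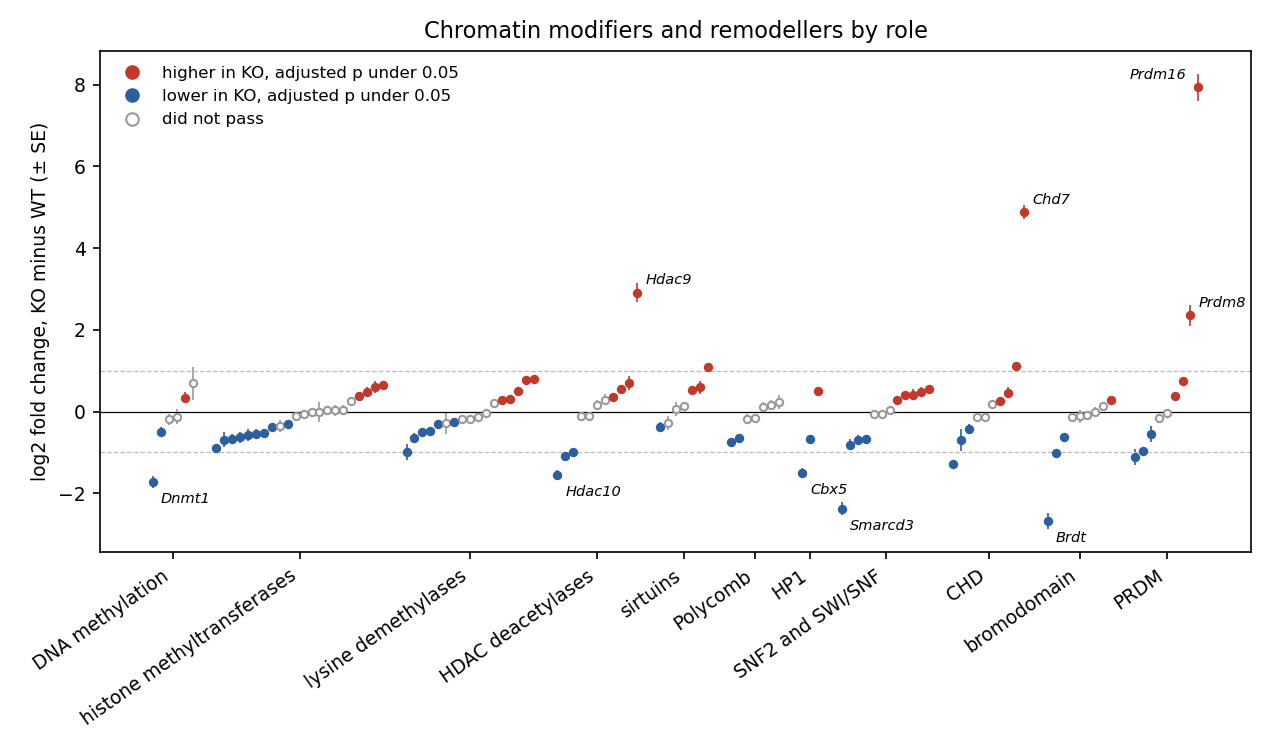
Log2 fold change (KO minus WT, with its SE) of each of the 113 members, grouped by role and ordered by value within a role. Filled red and blue points passed the test and open points did not, and the dashed lines mark 2-fold. The histone methyltransferases and demethylases lie between -1.0 and 0.80, while the members that differ most stand in the PRDM, CHD, bromodomain, SWI/SNF and deacetylase groups.

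The DNA methylation genes were led by a fall of Dnmt1, the maintenance methyltransferase that copies methylation onto new DNA strands. Dnmt1 (chr9:20907209-20959888, minus strand) stood at 57.4, 62.4 and 43.9 CPM in KO and 152, 183 and 202 CPM in WT. The highest KO library was well below the lowest WT library. Its log2 fold change was -1.72 (SE 0.15, adjusted p = 1.7e-05 by limma), a 3.29-fold lower level. Tet2, which oxidises methylcytosine, also fell, from 32.5, 39.0 and 38.0 CPM in WT to 24.1, 28.9 and 24.6 CPM in KO (log2 fold change -0.50, adjusted p = 0.0042). Dnmt3a, which sets new methylation, passed narrowly with overlapping libraries, at 103, 98.3 and 77.4 CPM in KO and 70.2, 83.8 and 66.4 CPM in WT (log2 fold change 0.34, adjusted p = 0.048). Dnmt3b (-0.12), Tet1 (0.69, SE 0.40) and Tet3 (-0.19) did not pass, with adjusted p-values of 0.56, 0.16 and 0.24.

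The 30 proliferation genes moved with Dnmt1. All 30 were lower in KO, 27 of them at least 2-fold, with a median log2 fold change of -2.46 and a summed level of 425 to 649 CPM in KO against 1859 to 2510 CPM in WT. Mki67, a marker of cycling cells, was at 7.29 ± 3.6 CPM in KO and 153 ± 67 CPM in WT (SD, n = 3). Within KO, replicate 2 had the highest and replicate 3 the lowest level of both Dnmt1 and the summed list, and within WT replicate 1 was lowest in both. This order is not particular to them. Every summed list of chromatin partner genes described below had the same order in KO, as did the acetyltransferases with 1560, 1717 and 1444 CPM. In WT, replicate 1 was lowest in each of these lists except that of the SWI/SNF partners. The part of proliferation in the Dnmt1 difference was not tested. Uhrf1, which brings Dnmt1 to hemimethylated DNA, fell from 57.5 ± 16 to 11.9 ± 2.5 CPM (log2 fold change -2.25), and Hells, a remodeller needed for DNA methylation, from 113 ± 17 to 36.5 ± 13 CPM (-1.68).

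Among the histone methyltransferases 4 rose, 9 fell and 9 did not pass, with a median log2 fold change of -0.08 and no member at 2-fold. Kmt2e, a member of the MLL family, fell most, from 195, 213 and 188 CPM in WT to 101, 117 and 102 CPM in KO (log2 fold change -0.90, SE 0.09, adjusted p = 3e-05). The libraries of the lines lay far apart. Of the methyltransferases in the complexes that methylate lysine 4 of histone H3, some fell, none rose and the rest did not pass. Kmt2d, an enhancer methyltransferase, fell from 139, 190 and 157 CPM in WT to 110, 122 and 99.3 CPM in KO (-0.55, adjusted p = 0.0049). Setd1a fell by 0.53 (adjusted p = 0.0025) and Setd1b by 0.39 (adjusted p = 0.012). Setd1a shares 51.9% of its exon bases with Gm49388 on the same strand, which was not among the listed genes. Kmt2a, Kmt2b and Kmt2c did not pass, with log2 fold changes of 0.03, 0.03 and -0.36.

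Enzymes of heterochromatin and of lysine 20 of histone H4 also included fallen genes. Suv39h1, which methylates lysine 9 of histone H3 in heterochromatin, fell from 33.6, 42.0 and 41.2 CPM in WT to 22.8, 29.1 and 23.7 CPM in KO (-0.63, adjusted p = 0.0026). Its paralog Suv39h2 had a log2 fold change of -0.02 (SE 0.24) and did not pass. Setdb2, from the family that methylates the same lysine, fell by 0.69 (adjusted p = 0.01), while Setdb1 stood at -0.05 and did not pass. Kmt5b, a methyltransferase of histone H4, fell from 129 ± 6.9 to 81.4 ± 12 CPM (-0.67, adjusted p = 0.00075). Ehmt1, which pairs with Ehmt2 to methylate lysine 9 of histone H3 in active regions of the genome, rose from 59.1 ± 3.3 to 77.5 ± 2.0 CPM (0.39, adjusted p = 0.0017). Ehmt2 itself was at 183, 178 and 187 CPM in KO and 215, 196 and 182 CPM in WT, which did not pass (adjusted p = 0.26).

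The largest rises among methyltransferases were in SET-domain enzymes that also act outside histones. Setd3, the methyltransferase of actin, was at 104, 89.5 and 108 CPM in KO and 64.3, 64.6 and 62.8 CPM in WT (log2 fold change 0.65, adjusted p = 0.00022). Setd6 rose by 0.61 (adjusted p = 0.0066). Setd7, which methylates lysine 4 of histone H3 and many other proteins, was at 301, 276 and 227 CPM in KO and 222, 180 and 175 CPM in WT (0.48, adjusted p = 0.01). The lowest KO library of Setd7 lay just above its highest WT library. Setd2, the enzyme for lysine 36 of histone H3, was at 169, 188 and 147 CPM in KO and 147, 175 and 167 CPM in WT, which did not pass (0.04, adjusted p = 0.76).

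Of the 17 lysine demethylases 5 rose, 6 fell and 6 did not pass, and their median log2 fold change was -0.17. Both flavin-dependent demethylases rose. Kdm1a, known as LSD1, was at 144, 154 and 151 CPM in KO and 105, 107 and 104 CPM in WT (0.51, adjusted p = 0.00019). Kdm1b was at 35.2, 32.3 and 33.5 CPM in KO and 20.8, 19.0 and 18.3 CPM in WT (0.80, adjusted p = 9.4e-05). The spread within each line was small beside the gap in both genes. Kdm1b shares 9.19% of its exon bases with Dek on the opposite strand, and Dek went the other way (log2 fold change -1.59).

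The KDM5 family, which removes methyl groups from lysine 4 of histone H3, had genes that moved in opposite directions. Kdm5b rose from 115, 115 and 104 CPM in WT to 191, 208 and 173 CPM in KO (0.78, adjusted p = 9.4e-05). The X-linked Kdm5c fell from 253, 255 and 251 CPM in WT to 186, 187 and 175 CPM in KO (-0.47, adjusted p = 0.00035). Kdm5a did not pass (0.21, adjusted p = 0.067). Kdm2a, a demethylase that binds unmethylated CG-rich DNA, fell from 303, 312 and 307 CPM in WT to 206, 223 and 165 CPM in KO (-0.64, adjusted p = 0.001), and Kdm3a fell by 0.51 (adjusted p = 0.0039). Kdm8 had the largest fall of the group at a low level, from 4.33, 6.23 and 5.63 CPM in WT to 2.46, 2.54 and 3.02 CPM in KO, just short of the 2-fold line (1.99-fold lower, adjusted p = 0.0017). The demethylases of lysine 27 of histone H3, Kdm6a (-0.19) and Kdm6b (-0.13), did not pass.

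**Figure D3:**
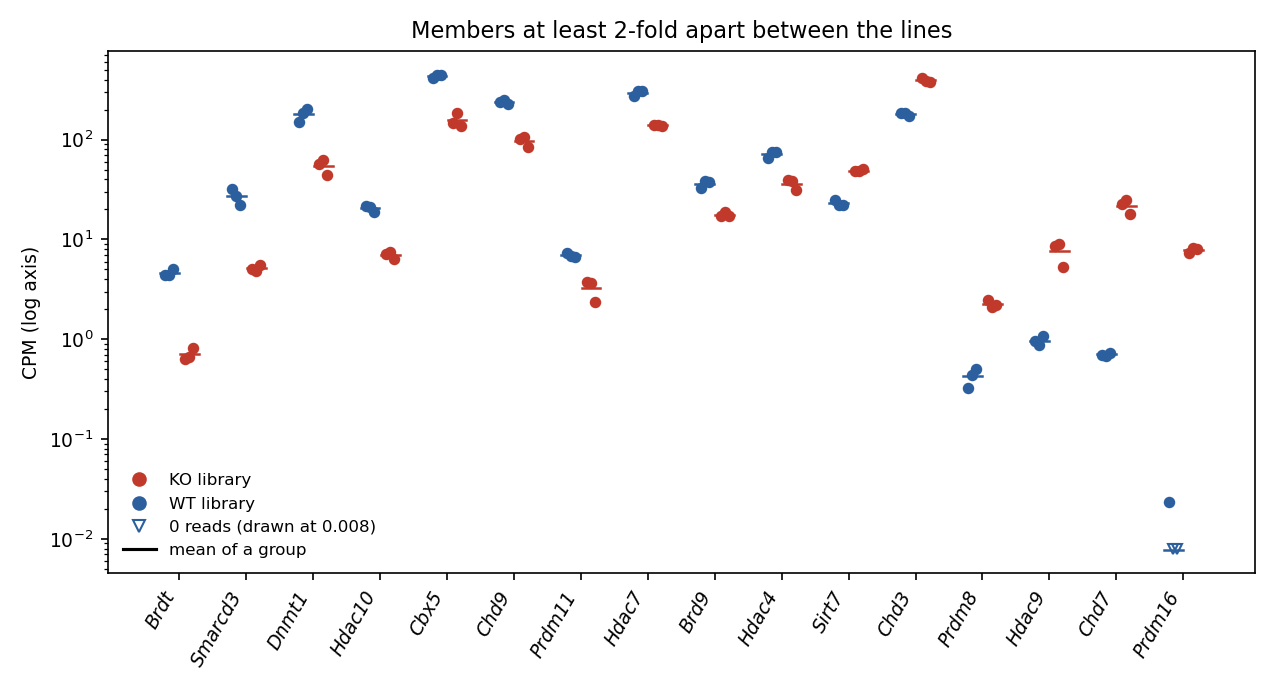
Level in CPM (vertical log axis) of the 16 members that passed the test and were at least 2-fold apart, ordered by fold change from Brdt to Prdm16. Each point is 1 library, lines are means of 3 libraries, and the open triangles are the WT libraries with 0 reads of Prdm16. The KO and WT points do not overlap in any of the 16.

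The histone deacetylases held genes at both ends, with 4 that rose, 3 that fell and 4 that did not pass. Class IIa deacetylases, which shuttle between nucleus and cytoplasm and bind MEF2 factors, fell in part. Hdac7 was at 141, 139 and 136 CPM in KO and 271, 307 and 309 CPM in WT (log2 fold change -1.09, SE 0.08, adjusted p = 5.1e-06). Hdac4 was at 39.3, 38.4 and 31.3 CPM in KO and 66.0, 76.0 and 75.5 CPM in WT (-1.0, adjusted p = 6.8e-05). Both genes kept a gap between the lines that was wide beside the spread within them. Hdac5, at 92.7, 78.6 and 66.2 CPM in KO and 58.9, 70.7 and 63.0 CPM in WT, did not pass (0.29, adjusted p = 0.074).

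Hdac9, the remaining class IIa gene, rose 7.50-fold. It stood at 8.59, 8.96 and 5.33 CPM in KO and 0.960, 0.880 and 1.07 CPM in WT (log2 fold change 2.91, SE 0.24, adjusted p = 1.1e-05). KO replicate 3 was lower than the other KO libraries and still above every WT library. The gene covers chr12:34047580-34917095 on the minus strand. RefSeq gives Hdac9 transcript starts far apart, and the 250 bases before each of them (RefSeq, GRCm38.p6, minus strand, 5′ to 3′) are shown because they differ from the CG-rich promoters typical of chromatin genes. The first lies at chr12:34917096-34917345 and holds no CG, with TATAAA in capitals, and the second lies at chr12:34528890-34529139, with its 2 CG in capitals.
Hdac9 first start: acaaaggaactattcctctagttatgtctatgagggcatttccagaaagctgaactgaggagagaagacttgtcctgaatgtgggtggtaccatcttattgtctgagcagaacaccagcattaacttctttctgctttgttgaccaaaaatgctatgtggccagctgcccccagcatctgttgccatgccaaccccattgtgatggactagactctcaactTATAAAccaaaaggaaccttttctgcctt
Hdac9 second start: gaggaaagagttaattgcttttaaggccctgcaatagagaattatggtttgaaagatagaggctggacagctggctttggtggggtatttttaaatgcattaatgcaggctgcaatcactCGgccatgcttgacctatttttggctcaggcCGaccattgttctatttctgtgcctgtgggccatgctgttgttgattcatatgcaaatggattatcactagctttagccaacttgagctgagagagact
Which start was used cannot be read from gene-level reads.

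Of the other deacetylases, the class IIb gene Hdac10, whose protein deacetylates polyamines, fell from 21.7, 21.2 and 18.9 CPM in WT to 7.19, 7.42 and 6.42 CPM in KO (log2 fold change -1.55, SE 0.12, adjusted p = 7.4e-06). Most class I enzymes act in the large corepressor complexes, and all class I genes changed by less than 2-fold. Hdac2 rose from 95.4, 110 and 103 CPM in WT to 147, 151 and 149 CPM in KO (0.54, adjusted p = 0.00028), while Hdac1 (-0.12), Hdac3 (-0.12) and Hdac8 (0.17) did not pass. Hdac11, the only class IV enzyme, rose from 44.7 ± 12 to 71.1 ± 3.7 CPM (0.70, adjusted p = 0.0051).

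The sirtuins, deacetylases that need NAD, counted 3 risen, 1 fallen and 3 that did not pass. Sirt7, which sits in the nucleolus, rose from 24.7, 21.9 and 22.3 CPM in WT to 48.0, 48.1 and 50.9 CPM in KO (log2 fold change 1.09, adjusted p = 8.9e-06). The nuclear Sirt6 rose by 0.53 (adjusted p = 0.00086) and the mitochondrial Sirt5 by 0.59 (adjusted p = 0.0081). The other mitochondrial sirtuins, Sirt3 (-0.27) and Sirt4 (0.06), and the mainly cytoplasmic Sirt2 (0.14) did not pass. Sirt1 fell narrowly, from 19.1, 22.2 and 22.1 CPM in WT to 16.1, 18.6 and 14.3 CPM in KO (-0.37, adjusted p = 0.028).

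Among the Polycomb proteins none rose, 2 fell and 5 did not pass. The catalytic subunits of the complex that methylates lysine 27 of histone H3 did not pass. Ezh2 was at 36.3, 39.7 and 31.5 CPM in KO and 36.1, 42.2 and 43.9 CPM in WT (log2 fold change -0.18, SE 0.12, adjusted p = 0.19), and Ezh1 was at 98.9, 95.2 and 103 CPM in KO and 119, 113 and 101 CPM in WT (-0.17, SE 0.08, adjusted p = 0.11). The fallen genes were CBX readers, which bind that mark. Cbx6 fell from 377, 338 and 305 CPM in WT to 212, 238 and 198 CPM in KO (-0.65, adjusted p = 0.00065). Cbx7 fell from 36.3, 44.7 and 37.5 CPM in WT to 21.2, 23.4 and 25.4 CPM in KO (-0.76, adjusted p = 0.00043). Cbx2 (0.23) and Cbx8 (0.16) did not pass.

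All 3 HP1 genes, whose proteins bind methylated lysine 9 of histone H3, passed the test. Cbx5, which encodes HP1 alpha, was at 148, 185 and 137 CPM in KO and 419, 450 and 448 CPM in WT, a 2.82-fold lower level (log2 fold change -1.50, SE 0.12, adjusted p = 7.6e-06). Cbx1, which encodes HP1 beta, rose from 74.3, 80.9 and 74.3 CPM in WT to 102, 104 and 118 CPM in KO (0.49, adjusted p = 0.00087). Cbx3, which encodes HP1 gamma, was at 13.1, 14.1 and 13.8 CPM in KO and 21, 22.7 and 21.3 CPM in WT (-0.66, adjusted p = 0.00036). Cbx3 has near-identical pseudogene copies with which its reads can be shared, so its level is uncertain.

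SWI/SNF complexes are built around the ATPases Smarca4 or Smarca2. Smarca4 was at 328, 331 and 272 CPM in KO and 291, 298 and 310 CPM in WT, which did not pass the test (log2 change 0.04, adjusted p = 0.70). Smarca2 fell from 158, 122 and 110 CPM in WT to 77.5, 68.4 and 74.2 CPM in KO (-0.81, adjusted p = 0.00065). The ISWI ATPase Smarca5 fell from 149, 162 and 178 CPM in WT to 101, 112 and 93.5 CPM in KO (-0.68, adjusted p = 0.00033), and the related remodeller Smarcad1 rose from 59.2 ± 1.5 to 87.0 ± 3.2 CPM (0.55, adjusted p = 0.00015). The core subunit Smarce1 rose by 0.39 (adjusted p = 0.00086) and Smarcb1 (-0.06) did not pass.

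The 3 SMARCD paralogs, of which each complex holds 1 kind, went different ways. Smarcd3, the form linked to heart and muscle, was at 5.09, 4.82 and 5.49 CPM in KO and 32, 27.0 and 22.2 CPM in WT, a 5.20-fold lower level (log2 fold change -2.38, SE 0.15, adjusted p = 2.5e-06). Smarcd1 fell from 65.2, 66.5 and 66.9 CPM in WT to 42.6, 47.3 and 33.8 CPM in KO (-0.70, adjusted p = 0.00097). Smarcd2 rose from 60.8, 54.9 and 46.4 CPM in WT to 76.8, 75.3 and 73.9 CPM in KO (0.49, adjusted p = 0.0031). Smarcd3 (chr5:24590818-24624411, minus strand) shares 48.2% of its exon bases with Chpf2 on the opposite strand. Chpf2 stood at 64.2 ± 6.3 CPM in KO and 67.8 ± 5.7 CPM in WT (log2 fold change -0.08, adjusted p = 0.50), and the sources used here do not give the strand setting of the counting.

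The CHD remodellers had 4 genes that rose, 3 that fell and 3 that did not pass. Chd7, which binds enhancers and is mutated in CHARGE syndrome, was at 22.6, 24.7 and 17.9 CPM in KO and 0.703, 0.673 and 0.735 CPM in WT, a 29.5-fold higher level (log2 fold change 4.88, SE 0.17, adjusted p = 8.7e-08). The gene lies at chr4:8690406-8867659 on the plus strand. All WT libraries were under 1 CPM. Its close paralog Chd9 moved the other way, from 236, 249 and 229 CPM in WT to 102, 106 and 85.1 CPM in KO (-1.29, SE 0.10, adjusted p = 6.6e-06).

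The remodelling subunits of the NuRD complex were Chd3, Chd4 and Chd5. Chd3 rose from 186, 185 and 174 CPM in WT to 411, 388 and 376 CPM in KO (log2 fold change 1.11, SE 0.08, adjusted p = 3.5e-06). Chd4 was at 429, 479 and 389 CPM in KO and 453, 494 and 473 CPM in WT, which did not pass (-0.13, adjusted p = 0.25). Chd3 was thus well separated between the lines and Chd4 overlapped. Chd1l, a remodeller drawn to DNA breaks, fell from 20, 19.8 and 19.7 CPM in WT to 13.9, 16.2 and 14.5 CPM in KO (-0.42, adjusted p = 0.0062).

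Bromodomain proteins read acetylated histones. Of the 9 genes 1 rose, 3 fell and 5 did not pass. Among the BET genes, Brd2 and Brd3 did not pass. Brd2 was at 304, 309 and 295 CPM in KO and 313, 335 and 351 CPM in WT (log2 fold change -0.14, SE 0.08, adjusted p = 0.15). Brd3 had a log2 fold change of 0.13 (adjusted p = 0.20). The KO and WT ranges of Brd2 were apart by a small gap. Brd9, a subunit of a form of SWI/SNF, fell from 32.6, 38.2 and 37.4 CPM in WT to 17.3, 18.6 and 17.2 CPM in KO (-1.02, adjusted p = 3e-05), and its relative Brd7, of another form, rose by 0.29 (adjusted p = 0.013). Brd8, of an acetyltransferase complex, fell by 0.63 (adjusted p = 0.001).

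Brdt, the BET gene known from the testis, had the largest fall on the deposited scale, and Smarcd3 (-2.18) had a larger one than Brdt (-1.72) on the log2(CPM + 1) scale. It stood at 0.640, 0.656 and 0.822 CPM in KO and 4.4, 4.42 and 5.06 CPM in WT, a 6.38-fold lower level (log2 fold change -2.67, SE 0.20, adjusted p = 6.1e-06). The gene lies at chr5:107331159-107387058 on the plus strand. All 3 KO libraries were under 1 CPM and all WT libraries over 4 CPM.

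PRDM genes carry a domain related to that of the methyltransferases next to zinc fingers, and several act as lineage factors. Of the 9 genes 4 rose, 3 fell and 2 did not pass. Prdm16, a regulator of brown fat and blood stem cells, was read in KO and almost not in WT. It was at 7.33, 8.25 and 8.09 CPM in KO, against 0.0234 CPM in WT replicate 1 and 0 in the other WT libraries. That is 892 reads against 1 read, a ratio of 918 after scaling by depth (exact 95% interval 164 to 36315, which covers counting error only). The fitted log2 fold change of 7.94 (adjusted p = 2.2e-07 by limma) depends on the prior count and is no measure of size.

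Prdm8, a repressor known from neurons and retina, was at 2.46, 2.08 and 2.20 CPM in KO and 0.328, 0.440 and 0.509 CPM in WT, a 5.10-fold higher level (log2 fold change 2.35, SE 0.25, adjusted p = 5.1e-05, and 1.19 on the log2(CPM + 1) scale). Its exons share 29.1% of their bases with A730035I17Rik on the opposite strand, which was not among the listed genes. The widely expressed Prdm4 rose from 41.1, 42.9 and 51.5 CPM in WT to 74.7, 76.5 and 74.3 CPM in KO (0.74, adjusted p = 0.00018). Prdm11 fell from 7.24, 6.80 and 6.70 CPM in WT to 3.74, 3.68 and 2.36 CPM in KO (-1.11, SE 0.20, adjusted p = 0.0013). PRDM genes at low levels thus moved in both directions. Prdm9, the meiotic recombination factor, passed narrowly at 3.64, 4.77 and 6.37 CPM in KO and 6.86, 7.01 and 7.24 CPM in WT (-0.55, adjusted p = 0.041).

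Promoters of Prdm16, Prdm8, Brdt and Smarcd3, members at 4-fold, and of Dnmt1 are shown to set what lies before them beside the size of the change. Each is the 250 bases before a transcript start of RefSeq (GRCm38.p6), printed 5′ to 3′ on the gene's strand, with every CG in capitals. Prdm16 lies at chr4:154636874-154637123 (minus strand, 22 CG), Prdm8 at chr5:98180619-98180868 (plus strand, 11 CG), Brdt at chr5:107330944-107331193 (plus strand, 16 CG) and Smarcd3 at chr5:24602003-24602252 (minus strand, 38 CG). Dnmt1 is at chr9:20952624-20952873 (minus strand, 26 CG). Of the 3 Dnmt1 starts in the table this is the one with most CG. The others have 7 and 2 CG, the last of them at the outer bound of the gene. The printed Dnmt1 block lies downstream of the other starts, within the gene, so it is not the sequence before the outermost start. The printed Prdm8, Brdt, Smarcd3 and Dnmt1 starts lie inside the gene bounds that GENCODE gives.
Prdm16: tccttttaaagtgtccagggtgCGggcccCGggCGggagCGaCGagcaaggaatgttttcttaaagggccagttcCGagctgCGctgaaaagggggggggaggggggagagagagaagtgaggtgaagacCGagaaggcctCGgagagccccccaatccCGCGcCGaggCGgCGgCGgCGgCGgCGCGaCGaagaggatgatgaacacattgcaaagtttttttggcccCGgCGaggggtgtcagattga
Prdm8: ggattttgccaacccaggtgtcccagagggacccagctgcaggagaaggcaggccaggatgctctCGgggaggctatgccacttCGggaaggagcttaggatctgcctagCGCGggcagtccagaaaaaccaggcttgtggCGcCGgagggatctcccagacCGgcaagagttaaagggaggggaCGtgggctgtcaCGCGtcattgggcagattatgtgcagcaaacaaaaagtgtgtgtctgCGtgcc
Brdt: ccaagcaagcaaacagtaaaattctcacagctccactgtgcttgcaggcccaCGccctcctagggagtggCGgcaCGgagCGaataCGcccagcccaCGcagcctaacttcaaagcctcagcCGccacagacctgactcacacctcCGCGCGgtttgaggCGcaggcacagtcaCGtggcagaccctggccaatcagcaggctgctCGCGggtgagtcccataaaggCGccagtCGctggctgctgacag
Smarcd3: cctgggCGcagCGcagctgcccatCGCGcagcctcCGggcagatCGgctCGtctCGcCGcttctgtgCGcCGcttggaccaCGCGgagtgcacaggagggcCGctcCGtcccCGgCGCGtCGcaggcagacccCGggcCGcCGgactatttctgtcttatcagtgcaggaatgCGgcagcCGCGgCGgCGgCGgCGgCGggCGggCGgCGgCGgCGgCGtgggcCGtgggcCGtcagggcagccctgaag
Dnmt1: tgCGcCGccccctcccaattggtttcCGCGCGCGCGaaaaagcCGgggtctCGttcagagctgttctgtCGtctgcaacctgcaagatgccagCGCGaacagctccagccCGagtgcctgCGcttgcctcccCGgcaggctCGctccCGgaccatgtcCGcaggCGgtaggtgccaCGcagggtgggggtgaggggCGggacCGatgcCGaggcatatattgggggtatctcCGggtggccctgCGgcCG
Both a gene almost unread in WT (Prdm16) and a gene that fell in KO (Brdt) have CG-rich sequence there, while of the promoters printed those of Hdac9 have few CG or none.

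CG-rich promoters were the rule for these genes. RefSeq promoters were matched for 91 of the 113 members, 126 starts in all. The median was 20 CG in the 250 bases, against 16 for the promoters of all genes tested that matched and 6 for all 32851 promoters of the table. At least 10 CG were found in 84.1% of the members' promoters, in 71.9% of those of genes tested and in 37.8% of all. Both strands were searched for 3 motifs. TATAAA was in 4 of the members' promoters (3.17%, against 6.43% for genes tested and 12.4% for all). CACCTG, an E-box that ZEB and SNAIL repressors can bind, was in 19 (15.1%, against 15.6% and 17.2%). TTTNNCGC, a pattern looser than that of E2F sites, was in 10 (7.94%, against 6.86% and 4.28%). The printed Prdm8 sequence holds CACCTG. The printed Dnmt1 sequence holds TTTNNCGC, which the sequences before the other Dnmt1 starts do not. This describes their letters only.

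Relative levels of paralogs were compared per length, as CPM per kilobase of the union of a gene's exons, and as the gene's share of the family's sum in each library. Among DNA methyltransferases the share of Dnmt1 was 54.6% ± 1.6 in KO and 82.8% ± 2.5 in WT, and that of Dnmt3a 41.4% ± 1.7 and 15.2% ± 2.4 (SD, n = 3). The family's sum was 13.5 ± 2.1 CPM per kilobase in KO and 29.2 ± 3.5 in WT. The shift therefore went with a fall of the sum, in which Dnmt3b held 4.01% and 2.02%. Per length of the longest transcript in place of the exon union, an alternative chosen after seeing the data, Dnmt3a came first in KO with 49.2% against 47.5% for Dnmt1.

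Of Cbx5 and Cbx1, Cbx5 held the larger share of HP1 in WT and Cbx1 held it in KO. The level of Cbx3 is uncertain, as said above, and so are the HP1 shares and sum, which include it. Cbx5 held 69.4% ± 0.89 of the HP1 sum in WT and 38.7% ± 5.0 in KO, and Cbx1 25.5% ± 0.79 and 56.2% ± 4.9, while the sum fell from 70.3 ± 2.7 to 44.9 ± 2.3 CPM per kilobase. In the SMARCD family Smarcd2 held 40.8% ± 2.5 in WT and 65.2% ± 3.1 in KO, and Smarcd3 14.3% ± 1.5 and 3.13% ± 0.40. The SMARCD sum was 36.8 ± 2.8 CPM per kilobase in WT and 32.2 ± 1.9 in KO. None of these shares overlapped between the libraries of the lines.

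In the family of Chd6 to Chd9 the share of Chd9 was 42.4% ± 1.1 in WT and 19.0% ± 0.81 in KO. Chd8 held 37.2% ± 2.0 and 48.9% ± 1.2, and Chd7 0.211% ± 0.018 and 7.04% ± 0.50. The large ratio of Chd7 is thus a small share of the family even in KO, and the sums overlapped between the lines at 24.3 ± 1.2 and 22.3 ± 2.3 CPM per kilobase. In the NuRD family Chd3 held 26.6% ± 1.2 in WT and 46.2% ± 2.5 in KO, and Chd4 72.9% ± 1.1 and 53.6% ± 2.5. The NuRD sum rose from 81.0 ± 2.7 to 100.6 ± 6.6 CPM per kilobase, and the level of Chd4 itself did not pass the test. In class IIa, Hdac7 held 78.5% ± 0.64 in WT and 63.6% ± 3.3 in KO, Hdac5 13.1% ± 0.67 and 27.7% ± 2.7, and Hdac9 0.119% and 1.59%. The class IIa sum fell from 55.7 ± 4.1 to 32.4 ± 2.3 CPM per kilobase, and the level of Hdac5 itself did not pass. Ezh1 and Ezh2 show no such shift, with Ezh1 at 70.9% ± 3.7 in WT and 71.2% ± 3.1 in KO.

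**Figure D4:**
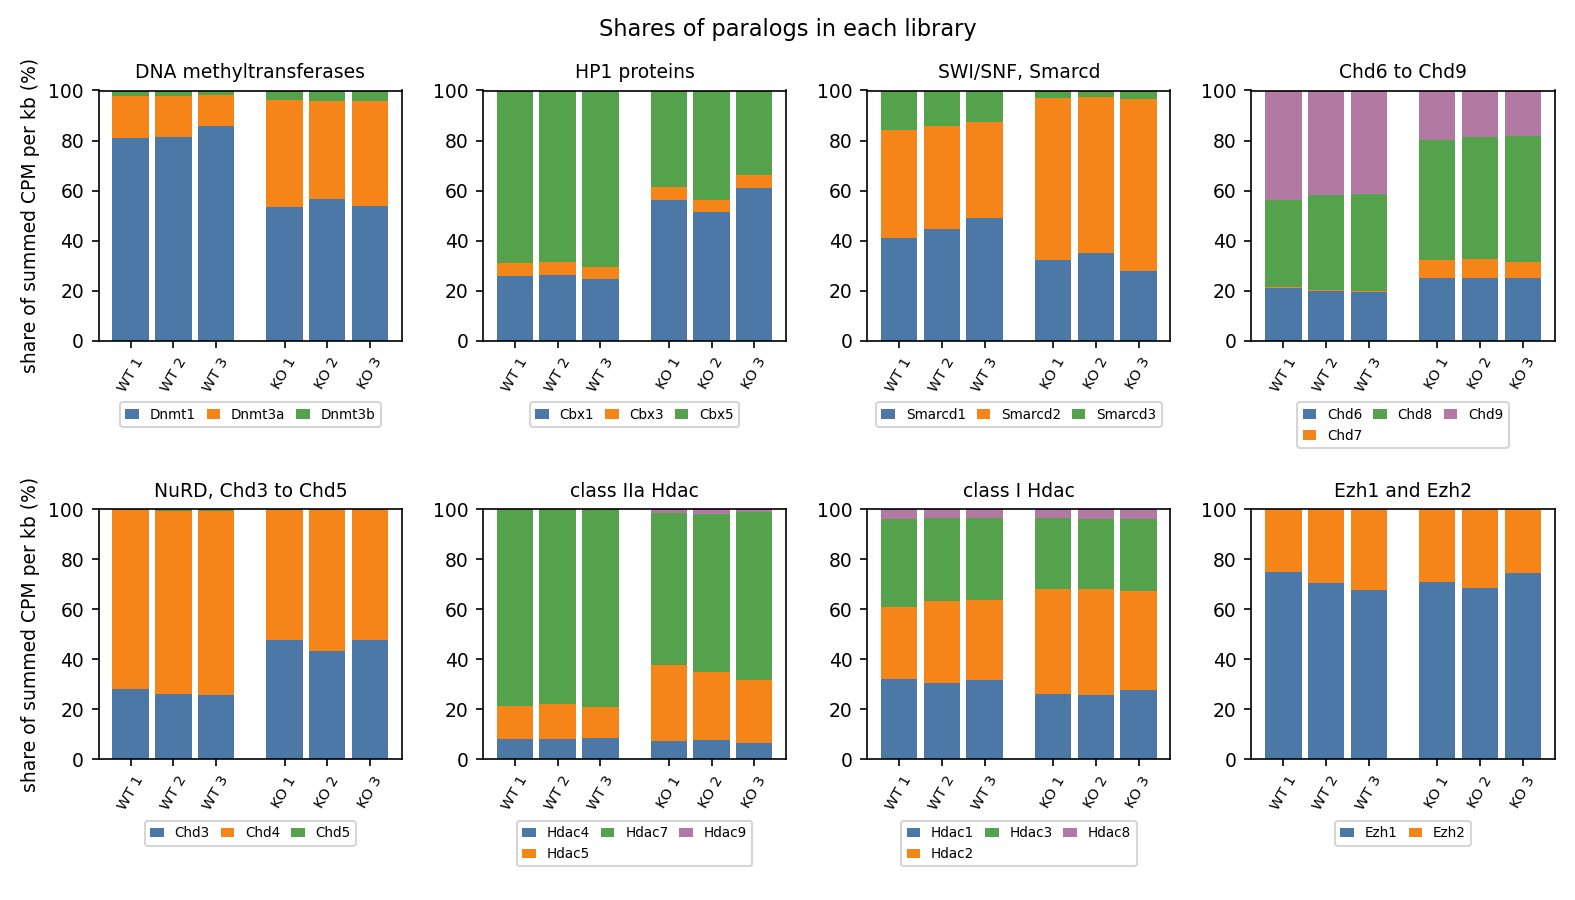
Share of each paralog in its family's summed CPM per kilobase of exon union (vertical axis, percent) in each of the 6 libraries, for 8 families. Dnmt3a, Cbx1, Smarcd2, Chd3, Hdac5 and Hdac2 are among the genes with a larger share in all KO libraries than in any WT library. Ezh1 and Ezh2 keep overlapping shares.

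Chromatin partner genes, from lists of subunits and enzymes that the symbol rule does not reach, were counted by the same test. Of 165 tested, 40 rose, 68 fell and 57 did not pass, with a median log2 fold change of -0.10, and 9.70% were called at 2-fold. Over all genes tested 34.3% were higher, 33.8% lower and 27.9% called at 2-fold. The share of partners that passed was 65.5%, near the 68.1% of all genes. In the single lists it ranged from 56.7% to 89.5%, and the list counts below are to be read beside these shares. Of the 30 Polycomb partners 6 rose and 11 fell. The rises were led by Bcorl1 (45.0 ± 5.2 CPM in KO, 18.4 ± 5.9 CPM in WT, log2 fold change 1.33) and Epop (1.13). Phf19, an accessory subunit that brings the complex to chromatin, fell most, from 2.13 ± 0.30 to 0.0525 ± 0.024 CPM (-4.82). Its mean KO level was under that of 3 reads, so the fitted value depends on the prior count and is no measure of size. It passed the filter on low values through WT only, so a difference in it was bound to be seen. Phc3 (-0.87) and Phf1 (-0.71) fell too.

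Of the 15 SWI/SNF partners 3 rose and 6 fell. Arid1b, the subunit that takes the place of Arid1a, fell from 249 ± 22 to 103 ± 24 CPM (log2 fold change -1.30), Dpf1, a subunit of neurons, from 2.71 to 0.624 CPM (-2.09), and Bcl7c by 1.18. The KO mean of Dpf1 was under 1 CPM, so it was tested only because of its WT values and its change is that of a low gene. Of the 19 subunits of other remodellers 6 rose and 8 fell, with Baz1b, the partner of Smarca5, down from 327 to 159 CPM (-1.04). Smarca5 and its partner were thus both lower in KO. Of the 25 acetyltransferase genes 4 rose and 12 fell, with Epc1 (-1.11) and Hat1 (56.6 to 27.0 CPM, -1.07) lowest and Kat2a (0.40) highest. Of the 28 corepressor genes 3 rose and 14 fell, and Mier2 rose most (1.04).

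Of the 30 partners and other enzymes of histone methylation 9 rose and 10 fell. Dot1l, the methyltransferase of lysine 79 of histone H3, rose by 0.63, and Men1, the scaffold of the MLL complexes, fell by 0.86, as did Mecom, a PRDM protein by structure, by 1.0. Of the 19 DNA methylation partners 9 rose and 8 fell. Gadd45b, a stress gene linked to removal of DNA methylation, rose from 70.1 to 213 CPM (log2 fold change 1.63), Zbtb4, a reader of methylated DNA, rose by 1.12, and Idh2, which makes the cofactor of TET enzymes and demethylases, fell from 186 to 60.8 CPM (-1.62). Hells stands in both this list and that of the remodellers.

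Where members lie in the genome moved with some of these differences. All genes tested on chromosome 15 had a median log2 fold change of -0.36, with 17.2% higher and 53.7% lower. Of its 8 members 7 fell (Hdac10, Hdac7, Cbx5, Cbx6, Cbx7, Smarcd1 and Kmt2d) and Brd1 did not pass. On chromosome 19 the median was -0.40 with 58.3% lower, and all 3 members, Smarca2, Kmt5b and Kdm2a, fell. On chromosome 11 the median was 0.42 with 59.4% higher, and 5 of the 11 members rose and none fell (Chd3, Sirt7, Cbx1, Smarcd2 and Smarce1). The members that passed on these chromosomes thus went the way of their neighbours.

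Taken relative to the median of their chromosome, a comparison chosen after seeing the data, 31 members that passed were higher and 39 lower. Chd3 (0.68), Sirt7 (0.67), Hdac7 (-0.74) and Brd9 (-0.88) were then under 2-fold. Smarce1 moved from 0.39 to -0.03. Copy number was not measured, and the part of the chromosome in these differences was not tested.

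**Figure D5:**
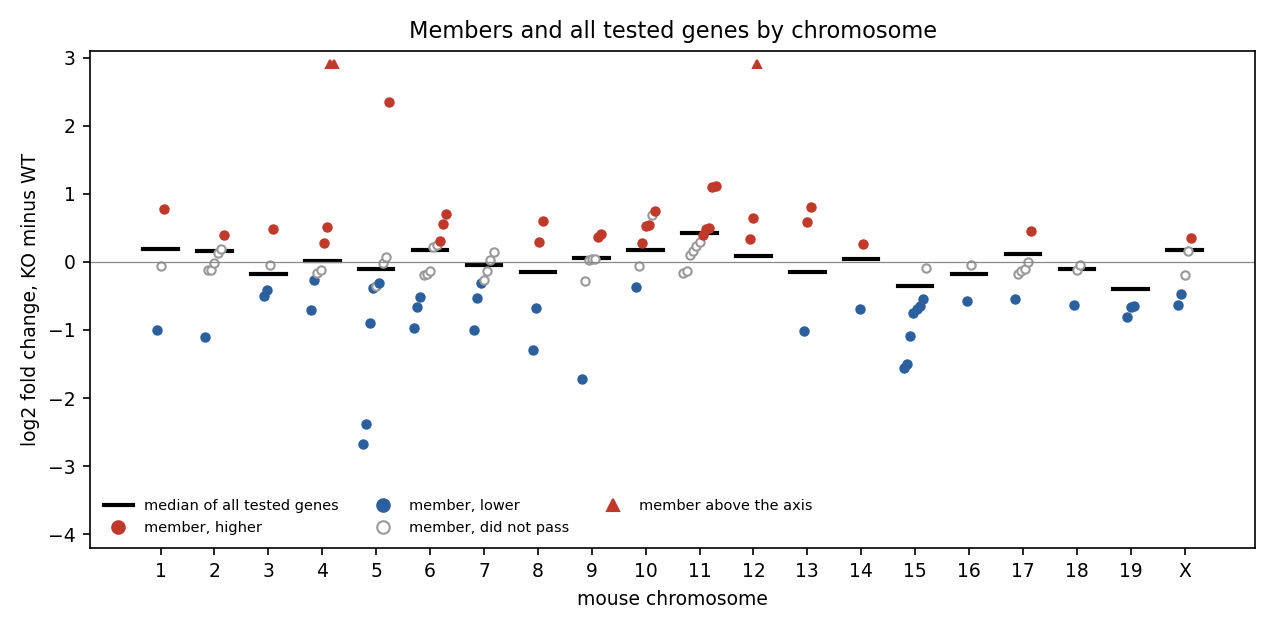
Log2 fold change (KO minus WT) of the members by chromosome, with the median of all tested genes of each chromosome as a black bar. Red and blue points passed the test, open points did not, and triangles stand for members above the axis. The bars of chromosomes 15 and 19 lie below 0 and that of chromosome 11 above it, and the members that passed there lie on the same side.

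The calls of 16 of the 70 members that passed were lost under at least 1 of the 14 alternatives of the fit, and none of the 70 changed direction under those 14. Smarce1 alone changed sign when the chromosome median was subtracted. Leaving out single libraries gave the following adjusted p-values where calls were lost. Chd5, at 2.19, 2.80 and 2.65 CPM in KO and 2.74, 5.15 and 5 CPM in WT (log2 fold change -0.70, adjusted p = 0.043), lost its call without any KO library or without WT replicate 2 or 3 (0.0646 to 0.147). Prdm9 lost it without KO replicate 1 or 2 or any WT library (0.0651 to 0.131). Dnmt3a lost it without KO replicate 1 or 2 or WT replicate 1 or 3 (0.105 to 0.164), and Chd8 (0.27 in the full fit) without the same libraries (0.0638 to 0.124). Sirt1 lost it without KO replicate 1 or 3 or WT replicate 2 or 3 (0.0745 to 0.0979). Kmt5c (-0.30) lost it without KO replicate 1 or 2 or WT replicate 1 or 2 (0.0717 to 0.097). Hdac6 (0.35) lost it without KO replicate 2 or 3 or WT replicate 1 or 2 (0.0538 to 0.0946). Kdm4a (0.28) and Smarcc2 (0.28) lost it without KO replicate 1 or 2 or WT replicate 2 or 3 (0.0542 to 0.0896 and 0.0564 to 0.0664).

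The remaining close calls rested on fewer libraries. Smarcc1 (log2 fold change 0.41) lost its call without KO replicate 1 or 2 or WT replicate 1, at adjusted p-values of 0.061, 0.06 and 0.0538. Chd1 (0.46) lost it without KO replicate 1 (0.0565) or 2 (0.0566), and Kdm4c (-0.27) without KO replicate 1 (0.0828) or WT replicate 3 (0.0575). Kdm2b (-0.31, 0.054) and Setd1b (-0.39, 0.0535) lost it without WT replicate 2, and Prdm10 (0.37, 0.0566) without KO replicate 2. Setd4 (-0.58) lost it under quantile normalization only (0.112). These genes changed by less than 2-fold, and the 16 members at 2-fold passed under each of these 14 in which they were tested.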

How the data were processed

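The 6 libraries were made from 100 ng of total RNA with a stranded mRNA kit, per the labels' protocols. The submitters' processing notes name GRCm38 and the tools STAR 2.7.3a, Trimmomatic 0.39, Subread 1.6.4 with featureCounts, and edgeR. The sources used here give neither annotation, strand setting, filter nor prior count.

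The authors deposited 1 table of log2 CPM with a column for each library. Reads were worked back from the steps of the linear values. All values (100%) came out whole within 0.01 of a read. CPM in the text are these reads scaled to the library size behind the deposited values. That size was 0.983 to 1.02 times the library's total over listed genes. Depth was 35447096 to 42106461 reads.

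Differences were tested with limma 3.58.1 (R 4.3.3, lmFit and eBayes with an intensity trend) on the deposited log2 values, as KO minus WT with no covariate. Testing covered the 12616 genes above 0 log2 CPM in 3 or more libraries, leaving out 187. The threshold was 0.05 after Benjamini-Hochberg adjustment over these genes, and adjusted p-values in the text are from this fit. Errors are SE for fold changes and SD over 3 libraries for levels. With 4 residual degrees of freedom the precision is limited. On simulated reads (11996 genes tested), 100 of 100 genes changed 2-fold and 98 of 98 changed 4-fold were called. Of the 11798 unchanged genes there, 10 were called. Most genes were thus unchanged in those reads, while 68.1% of the 12616 genes passed in the data. Calling with so large a share of changed genes was not tested.

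Alternatives were another filter or none, a common median, quantile normalization, log2(CPM + 1), no intensity trend, limma voom on the reads, a replicate block and leaving out each library. Symbols were matched to GENCODE M21 (GRCm38): 12673 were found, and 113 of 113 members had 1 position. It need not be the annotation the authors used. Of the members, 41 share exon bases with a gene on the opposite strand, and 1 (Smarcd3) shares over 10% with a listed gene. Some share more than that with genes that were not listed, such as Hdac4 (22.4% with Gm26720) and Suv39h1 (14.6% with Gm14820). Overlaps on the same strand, as that of Setd1a, are not in these counts.

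The members, the lists and the tests were chosen with earlier results of these data known. Every member could be named, and results for some genes are not reported here. Per-library values were given for members at 4-fold, for those at the highest level of a role and for paralogs and relatives beside them. From each partner list up to 3 risen and 3 fallen genes were eligible, by largest fitted change, with groups that did not overlap and at least 1 CPM in the higher line.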

Additional observations from a re-analysis of the deposited data

How the results depend on the processing

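The counts of members, partner genes and all genes in each direction stayed within 1.5 times their values under every alternative. Members higher ranged from 24 (without KO replicate 2) to 34 and members lower from 32 to 39. Members at least 2-fold higher numbered 5 under the stricter filter, 4 relative to the chromosome median (chosen after seeing the data) and 6 in all other settings, and those at least 2-fold lower 7 to 11. Of the 43 members that did not pass, 33 passed under no alternative and 10 under at least 1. The median log2 fold change of all genes was 0.01, and 0.06 after quantile normalization, which gave 4646 higher and 3978 lower genes where the main fit gave 4329 and 4261. Genes near 0 reads limit what depth can show, as for Prdm16 with its single WT read.

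With the replicate number as a block, 33 members were higher and 39 lower, and 4218 and 4177 of all genes. The sources used here do not say whether the numbers pair the libraries. Same-numbered libraries had correlations of 0.10, 0.08 and -0.10 in their deviations from the group means. Differently numbered ones had -0.22 to 0.18, so with 3 libraries in a group these values cannot decide it.

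Under the alternatives of the fit, values that changed sign belonged to members that did not pass, and the cause was not tested. Relative to the chromosome median, 1 member that passed changed sign (Smarce1, from 0.39 to -0.03). Quantile normalization gave 0.0315 for Brd3os, 0.142 for Dnmt3b, 0.0363 for Prdm15 and 0.255 for Suv39h2. A common median gave 0.00377 for Suv39h2. With single libraries left out, values ranged from -0.285 to 0.151 for Suv39h2, -0.115 to 0.129 for Kmt2a, -0.068 to 0.093 for Kmt2b, -0.0811 to 0.0400 for Kmt5a, -0.0448 to 0.131 for Setd2, -0.0871 to 0.148 for Sirt4, -0.179 to 0.00308 for Brd1, -0.0786 to 0.0181 for Prdm15 and -0.0056 to 0.137 for Smarca4.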
